A study of Mus musculus with 39 samples.

Results

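The mitochondrial carriers of the Slc25 family and the uncoupling protein Ucp2 were described in microglia of wildtype (WT) and 5XFAD mice kept in room air (normoxia, NX) or exposed to chronic intermittent hypoxia (CIH). Members were chosen by name: every gene whose symbol is Slc25a followed by a number, plus Ucp2, without pseudogenes and antisense entries. This gave 48 genes, present in both expression tables, among 46333 genes in the female and 54532 in the male table. The libraries were bulk mRNA from CD11b+ cells isolated from the cerebrum with magnetic beads, 19 from females harvested at 10 months and 20 from males harvested at 8 months. Each of the 8 groups (F or M, WT or 5XFAD, NX or CIH) held 5 libraries except F WT NX, which held 4. WT mice were C57Bl6, and 5XFAD mice carry human transgenes with familial Alzheimer's disease mutations under the Thy1 promoter, which is active mainly in neurons. Exposure began at 4 months of age in both sexes. By the series description, oxygen alternated between 6.5% and 21% in 90-s intervals for 8 h of the sleep phase, while the study's methods give a slightly lower oxygen level and more hours, and NX mice stayed at 21%. Age, length of exposure and expression table all differ between the sexes, so each sex was analysed on its own and the sexes were not tested against each other.

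Most Slc25 proteins sit in the inner mitochondrial membrane and exchange metabolites between the cytosol and the matrix. They bring in ADP, phosphate, keto acids, amino acids, cofactors and iron, and they let out ATP, citrate and aspartate. Most are built from repeats of the same fold, each holding a pair of membrane helices and a short signature that opens with a proline and carries an acidic and a basic residue at a fixed spacing. Microglia that respond to amyloid are known to alter glycolysis, oxidative phosphorylation, lipid handling and iron storage, which all draw on carriers of this family.

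Total counts were 14731683 to 25906121 per female and 13457293 to 23095627 per male library, of which 33649 to 67719 fell on the 48 members. Counting error is therefore small for the abundant carriers and large for those near a CPM (read counts scaled to equal library size) of 1. The labelled cell type was checked on 8 microglial markers, all present, whose summed level was 23218 to 35778 CPM over the groups. Markers of disease-associated microglia, the state that forms around plaques, summed to 3947 to 7580.2 CPM in WT and 26329 to 73099 CPM in 5XFAD males. In females they summed to 27830.3 to 42059 CPM in 5XFAD CIH, but the library labelled F 5XFAD NX 4 had 3079 CPM, below every F WT NX library (3497 to 9095 CPM), against a group median of 42408 CPM. It went against its label in this respect and also had a count for 38551 genes, against 21697 to 22148 in the other 4 libraries of its group. Carrier results of F NX that rest on it are given with and without it. These are bulk samples, so a lower level of a transcript cannot be told apart from fewer cells of the type that makes it.

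The signature of the family is shown first, because most members share it beyond their names. Translation of the longest reading frame of each GENCODE transcript gave 265 to 677 codons (median 318), and 28 of 48 members held the signature at least 3 times, 12 held it 2 times and 8 fewer. The coding stretch around the first match is printed below for 6 members that the results turn on, 60 bases from GENCODE M21 transcripts on the sense strand, with the 18 bases of the 6 signature codons in capitals. The genes lie on GRCm38 at chr8:46206797-46211284, minus strand (Slc25a4), chrX:36795651-36798807, plus strand (Slc25a5), chr7:100493337-100502020, plus strand (Ucp2), chr2:32414487-32451445, minus strand (Slc25a25), chr14:69241848-69285112, minus strand (Slc25a37) and chr19:5877808-5885766, plus strand (Slc25a45), and each stretch is coding sequence of the spliced transcript.

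Slc25a4: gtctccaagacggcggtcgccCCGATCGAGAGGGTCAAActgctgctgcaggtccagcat
Slc25a5: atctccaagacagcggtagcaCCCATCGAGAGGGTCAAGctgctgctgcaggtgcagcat
Ucp2: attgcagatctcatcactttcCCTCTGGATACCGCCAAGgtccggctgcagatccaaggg
Slc25a25: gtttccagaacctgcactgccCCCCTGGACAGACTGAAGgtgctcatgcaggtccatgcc
Slc25a37: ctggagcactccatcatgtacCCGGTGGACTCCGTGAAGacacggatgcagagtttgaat
Slc25a45: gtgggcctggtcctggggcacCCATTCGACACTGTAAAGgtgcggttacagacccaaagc

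Slc25a4 and Slc25a5, the ADP/ATP carriers also called Ant1 and Ant2, were identical at 89.6% of their aligned residues. The mitochondrial iron importers Slc25a37 (mitoferrin 1) and Slc25a28 (mitoferrin 2) were identical at 67.4%, the aspartate/glutamate carriers Slc25a12 and Slc25a13 at 77.3%, and the glutathione carriers Slc25a39 and Slc25a40 at 54.6%. Ucp2 and Slc25a4 were identical at 26.4%. Reads can still be told apart where the letters differ. Of 1141 different runs of 100 bases in the transcripts of Slc25a5, 137 also occurred in other, pseudogene-like gene models, and 19.1% of those in Slc25a35 also occurred in other genes, mostly Rangrf, whose transcripts overlap it. Slc25a37 shared 8.98% and Slc25a25 6.35% of their runs with other gene models, and Ucp2 4.62% of its runs with Dnajb13. Slc25a33 shared 10.18%, Slc25a40 6.98%, Slc25a10 6.7%, Slc25a36 4.98% and Slc25a11 4.66%. The strand setting used in counting is not given in the sources used here, so reads in those stretches cannot be assigned to a single gene with certainty.

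Promoters bear on the hypoxia comparison through ACGTG, the core of the element that hypoxia-inducible factors bind, and CACGTG, the E-box that contains it. RefSeq promoter windows (GRCm38.p6), which place the start of each gene at a RefSeq transcript, were matched by symbol for 37 of the 48 members, those without a window including Slc25a2, Slc25a26, Slc25a27, Slc25a32, Slc25a35, Slc25a37, Slc25a41, Slc25a44, Slc25a46 and Slc25a51. In the 250 bases before the start, read on both strands, ACGTG occurred in 11 of 37 members (29.7%) and in 18.5% of all genes in the table. CACGTG occurred in 7 (18.9%) and in 6.9% of all genes, and each CACGTG match is also counted as ACGTG. The box bound by NF-Y, CCAAT, occurred in 18 (48.6%) and in 37.5% of all genes, and the palindromic site of the respiratory gene regulator NRF1 in 2 (5.4%) and in 4.2%. Printed here are 4 promoters that hold CACGTG, in capitals, from genes called in at least 1 comparison, and those of Slc25a25 and Ucp2, which hold no ACGTG in this window. Slc25a25 has more than 1 RefSeq window, none of them with ACGTG. The one printed lies inside the gene as placed above, and the one at its outer end is not printed. A match is a description of the letters only.

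Slc25a1 (chr16:17928220-17928469, minus strand): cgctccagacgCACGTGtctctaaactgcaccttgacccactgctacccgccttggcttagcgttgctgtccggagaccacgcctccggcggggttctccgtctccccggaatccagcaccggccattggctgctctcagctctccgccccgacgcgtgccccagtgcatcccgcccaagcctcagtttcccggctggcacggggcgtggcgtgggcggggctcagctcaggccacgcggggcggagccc
Slc25a33 (chr4:149774268-149774517, minus strand): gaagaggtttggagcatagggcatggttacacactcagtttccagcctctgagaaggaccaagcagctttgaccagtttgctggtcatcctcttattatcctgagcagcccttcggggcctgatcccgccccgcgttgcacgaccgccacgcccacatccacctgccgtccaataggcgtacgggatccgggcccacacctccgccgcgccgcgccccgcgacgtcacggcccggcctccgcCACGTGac
Slc25a36 (chr9:97111042-97111291, minus strand): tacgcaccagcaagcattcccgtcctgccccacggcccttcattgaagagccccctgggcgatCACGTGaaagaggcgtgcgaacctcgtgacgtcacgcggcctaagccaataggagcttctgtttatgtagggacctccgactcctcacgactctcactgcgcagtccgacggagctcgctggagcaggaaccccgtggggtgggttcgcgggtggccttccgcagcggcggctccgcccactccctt
Slc25a13 (chr6:6217174-6217423, minus strand): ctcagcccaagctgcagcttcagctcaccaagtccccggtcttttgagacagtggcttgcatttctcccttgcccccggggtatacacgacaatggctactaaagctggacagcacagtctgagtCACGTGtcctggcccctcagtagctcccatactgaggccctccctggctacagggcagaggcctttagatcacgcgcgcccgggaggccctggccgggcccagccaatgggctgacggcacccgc
Slc25a25 (chr2:32424067-32424316, minus strand): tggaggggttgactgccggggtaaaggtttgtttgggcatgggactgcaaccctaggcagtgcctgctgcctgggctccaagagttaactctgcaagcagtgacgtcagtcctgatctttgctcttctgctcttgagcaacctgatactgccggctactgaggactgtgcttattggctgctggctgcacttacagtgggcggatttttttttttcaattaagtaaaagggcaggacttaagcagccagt
Ucp2 (chr7:100493108-100493357, plus strand): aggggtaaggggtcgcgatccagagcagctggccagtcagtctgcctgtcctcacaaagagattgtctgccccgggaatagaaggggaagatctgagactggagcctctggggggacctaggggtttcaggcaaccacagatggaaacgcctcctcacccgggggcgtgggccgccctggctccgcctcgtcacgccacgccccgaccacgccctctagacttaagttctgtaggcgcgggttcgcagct

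The carriers differed in level by several orders of magnitude. Levels between genes were compared as TMM-scaled CPM per kilobase, a level per length. In females the highest mean over all 19 libraries was that of Ucp2 at 319 (180.3 to 629 over the libraries), followed by the phosphate carrier Slc25a3 at 174 (130.2 to 238), Slc25a5 at 169 (118 to 228), the amino acid carrier Slc25a45 at 82.4 (51.7 to 119) and Slc25a4 at 66.5 (43.4 to 98.5). Each of these overlapped in range with the next. In males the order was Slc25a5 at 183 (101 to 302), Ucp2 at 110.4 (53.1 to 197), Slc25a45 at 69.3 (42.0 to 100.4), Slc25a3 at 61.8 (43.3 to 95.9) and the 2-oxoglutarate carrier Slc25a11 at 50.8 (37.0 to 65.1), and here too each overlapped with the next. Gene lengths were not the same in the tables: Slc25a3 was 1449 bases long in the female and 5550 in the male table, and Ucp2 1647 and 6989, so the order is not compared between the sexes. These means pool the genotypes, and the order differed within them. In M WT CIH Slc25a45 (85.6, 76.9 to 98.4) stood above Slc25a3 (45.8, 43.3 to 48.1), and in M 5XFAD CIH Slc25a3 (76.1, 63.1 to 95.9) stood above Slc25a45 (52.7, 42.0 to 62.2), in both without overlap. In F WT CIH Slc25a45 (112.9, 108 to 119) exceeded Slc25a4 (50.6, 45.7 to 58.3), whereas in F 5XFAD CIH Slc25a4 (85.0, 67.6 to 98.5) exceeded Slc25a45 (59.2, 51.7 to 61.7). The order within a sex rests on the gene lengths as well. In males Ucp2 held 26.4% and Slc25a5 10.6% of member counts, and Slc25a3 11.9% and Slc25a45 6.73%. In CPM, given below, Slc25a45 and Slc25a3 overlapped in M WT CIH, as did Slc25a45 and Slc25a4 in F 5XFAD CIH. Together the first 5 carriers held 65.4% of the summed per-length level of all members in females and 60.0% in males. At the other end, 7 members did not pass the expression filter (CPM above 1 in at least 3 of the libraries compared) in any pair of groups of either sex: Slc25a2, Slc25a21, Slc25a31, Slc25a34, Slc25a41, Slc25a48 and Slc25a54. Slc25a31 is the ADP/ATP carrier of the germ line and Slc25a48 a choline carrier. The other 41 members were tested in at least 1 pair, 40 or 41 per pair.

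**Figure D1:**
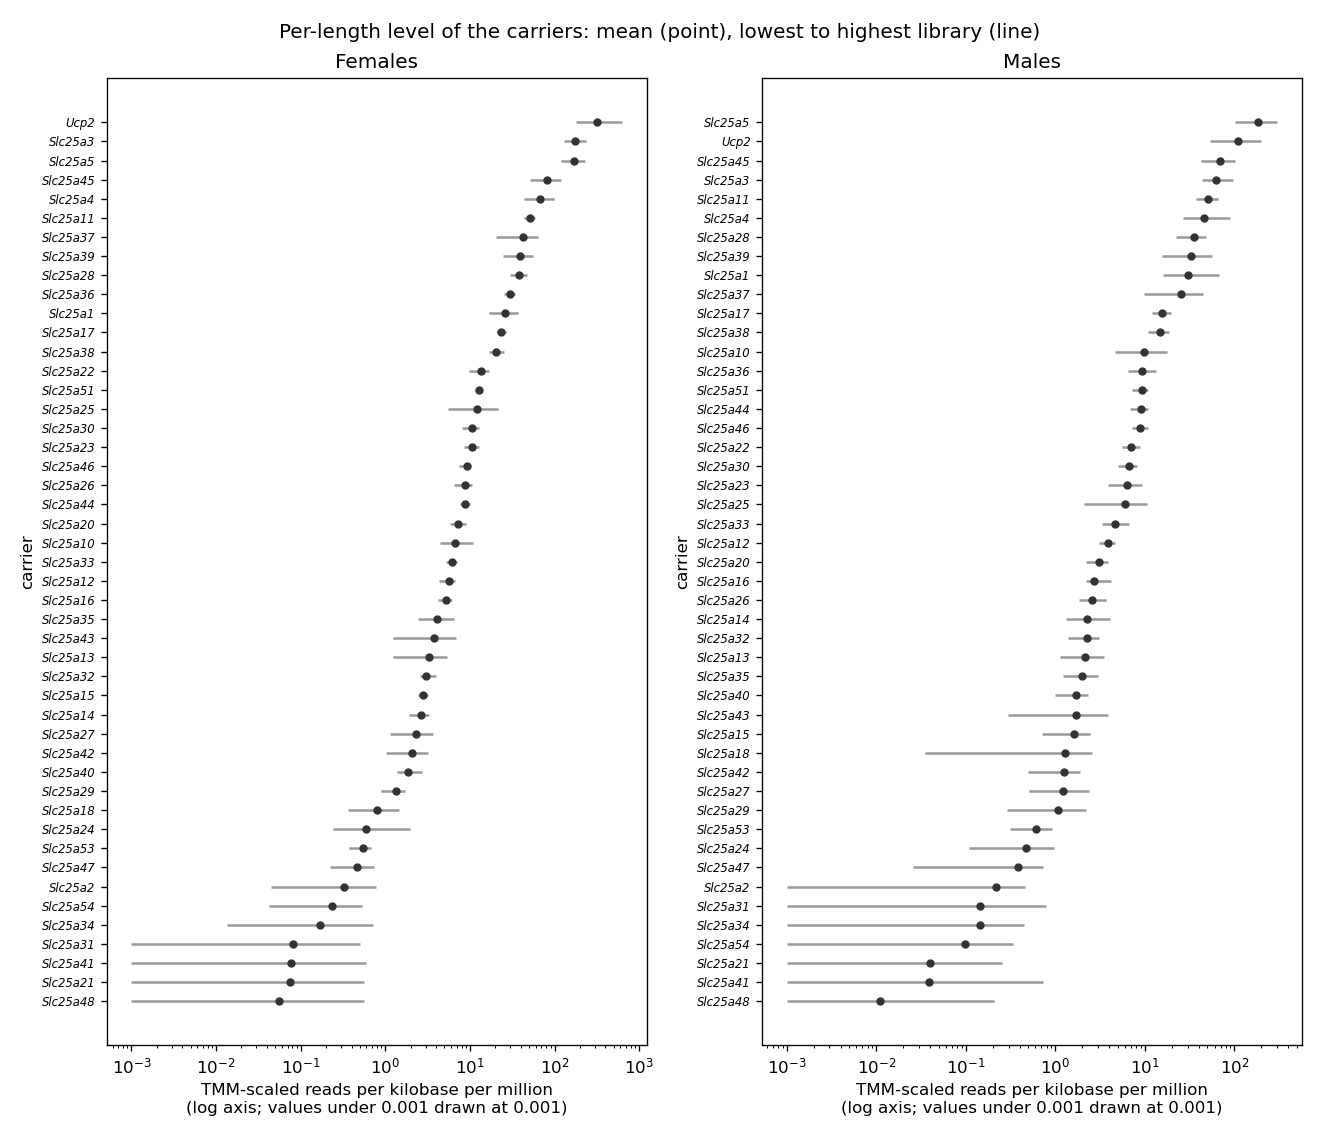
Per-length level of all but 1 of the 48 carriers in females and males, as TMM-scaled CPM per kilobase on a log axis; points are means over 19 and 20 libraries and lines run from the lowest to the highest library. Ucp2 and Slc25a5 lead in females and males respectively, and the 7 carriers tested in no pair of groups lie at the bottom of both panels.

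Under CIH the ADP/ATP and phosphate carriers Slc25a3, Slc25a4, Slc25a5, Slc25a23 and Slc25a25, the citrate carrier Slc25a1, the dicarboxylate carrier Slc25a10 and Ucp2 were higher in 5XFAD than in WT microglia of both sexes. The iron importer Slc25a37 and the amino acid carrier Slc25a45 were lower in 5XFAD under CIH and NX. Genotype was tested within each sex and treatment with edgeR's quasi-likelihood F test, and a member was called at a Benjamini-Hochberg false discovery rate (FDR) below 0.05 over all genes tested. A positive log2 fold change (log2FC, given ± SE) means a higher level in 5XFAD. Under CIH, 21 of 41 tested carriers were called in females, while 51.9% of all 14911 genes were. Of these, 13 were higher (26.2% of all genes) and 8 lower (25.7%). In males 19 of 41 were called under CIH, against 49.0% of all 14793 genes, 12 of them higher (25.3% of all genes) and 7 lower (23.7%). Under NX 5 of 40 were called in females, against 13.9% of all 14513 genes, 3 of them higher (7.26%) and 2 lower (6.61%). In males 5 of 41 were called under NX, against 17.8% of all 14834 genes, 3 of them higher (10.4%) and 2 lower (7.37%). The share of carriers called was thus close to, or in M NX below, that of all genes. With an absolute log2FC above 1 in addition, the study's threshold for a differentially expressed gene (DEG), 5 carriers passed in F CIH (13% of all genes did), 8 in M CIH (18.7%), 3 in F NX (5.99%) and 1 in M NX (8.25%). The median log2FC of the tested carriers was 0.08 in F CIH, 0.01 in M CIH, 0.00 in F NX and 0.11 in M NX, and that of all genes −0.02, −0.06, −0.02 and 0.02. In F NX the count fell to between 0 and 2 without any 1 of the libraries other than F 5XFAD NX 4, where 0.301% to 6.52% of all genes were called. Without F 5XFAD NX 4, 19 of 40 carriers were called (44.0% of all genes), 12 higher (21.8%) and 7 lower (22.2%), and all 19 were also called in F CIH with the same sign. In M NX the count was 9 without M 5XFAD NX 5 and 3 without M WT NX 1, 3 or 4 or M 5XFAD NX 1, 2 or 3, and over all libraries left out in turn 14.1% to 19.0% of all genes were called.

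**Figure D2:**
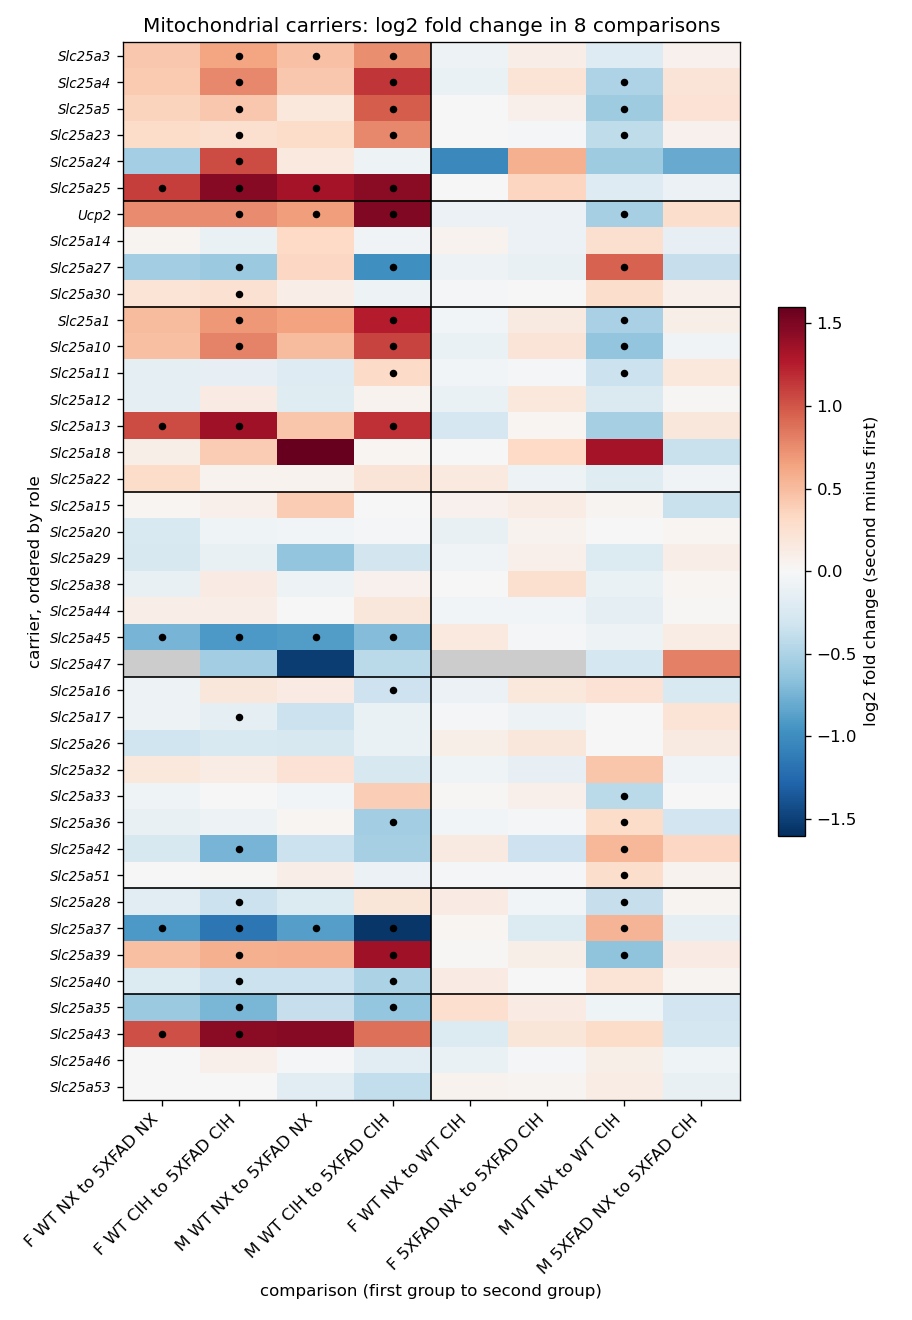
Log2 fold change (colour, second group minus first) of all but 1 of the 41 carriers tested in at least 1 pair, in 8 comparisons; rows are ordered by role with lines between roles, black points mark FDR below 0.05 and grey cells were not tested. The row of Slc25a25 is higher and those of Slc25a37 and Slc25a45 are lower, with a black point, in each of the 4 genotype comparisons on the left.

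Of the carriers that move ADP, ATP and phosphate, which feed and empty ATP synthase, all 6 tested rose in 5XFAD females under CIH (26.2% of all genes did) and 5 of 6 in males (25.3%), with a median log2FC of 0.70 and 0.87. Under NX 1 of 6 rose in females (7.26% of all genes) and 2 of 6 in males (10.4%), and without F 5XFAD NX 4, 5 of 6 rose in females (21.8%), all but Slc25a24. The group's remaining members, Slc25a31 and Slc25a41, were not tested. Among them Slc25a25, an ATP-Mg/phosphate carrier regulated by calcium, was called in every genotype comparison. In females it stood at 21.9, 25.7, 30.4 and 31.5 CPM in WT NX and 65.5, 80.9, 51.9, 21.9 and 75.1 CPM in 5XFAD NX, where only the library labelled F 5XFAD NX 4 was as low as the WT values. Under CIH it stood at 34.4, 22.1, 23.1, 31.5 and 26.3 CPM in WT and 86.8, 64.1, 70.1, 67.3 and 84.6 CPM in 5XFAD, with no overlap. The rise was 2.15-fold under NX (log2FC 1.11 ± 0.315, FDR = 0.0466) and 2.74-fold under CIH (log2FC 1.46 ± 0.127, FDR = 8.24e-07). In males the values were 25.4, 36.6, 27.8, 19.5 and 30.1 CPM in WT NX and 73.9, 67.3, 72.1, 76.9 and 59.0 CPM in 5XFAD NX. Under CIH they were 31.3, 22.4, 30.7, 20.3 and 16.5 CPM in WT and 67.7, 55.9, 62.3, 60.4 and 82.1 CPM in 5XFAD, and the genotypes did not overlap under either treatment. The female NX call was lost with library size alone, with the replicate block and when any library other than F 5XFAD NX 4 was left out, and without F 5XFAD NX 4 the log2FC was 1.31 (FDR = 0.000143). Male log2FC was 1.33 under NX (FDR = 8.36e-05) and 1.45 under CIH (FDR = 8.41e-06).

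Slc25a3 imports the phosphate used by ATP synthase. Its female libraries had 228, 193, 200.5 and 223 CPM in WT NX, 334, 318, 274, 190.0 and 309 CPM in 5XFAD NX, 207, 201, 189, 206 and 197 CPM in WT CIH and 309.7, 282, 273, 320.3 and 346 CPM in 5XFAD CIH. Every 5XFAD CIH library was above every WT CIH library, and under NX the library labelled F 5XFAD NX 4 was again the one at WT level. The difference passed under CIH (log2FC 0.63 ± 0.069, FDR = 6.72e-06) and not under NX (log2FC 0.43 ± 0.148, FDR = 0.0747), and without that library it was 0.54 (FDR = 0.000671) under NX. In males it had 287, 287, 262, 312 and 313 CPM in WT NX, 463, 472, 449.9, 312 and 318 CPM in 5XFAD NX, 264, 241, 257, 240.5 and 267 CPM in WT CIH and 378, 350.1, 436, 415 and 532 CPM in 5XFAD CIH. Libraries M 5XFAD NX 1 to 3 were all above those of WT NX, whereas M 5XFAD NX 4 and 5 lay within or just above the WT NX range. Slc25a3 rose under both treatments, by 0.46 (FDR = 0.0361) under NX and 0.74 (FDR = 6.44e-05) under CIH. The NX call was lost with library size alone, without the expression filter, with the replicate block and when any 1 of M WT NX 1 to 5 or M 5XFAD NX 1 to 3 was left out.

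Slc25a5 is the ADP/ATP carrier of proliferating and immune cells. In females its levels were 188, 185, 207 and 168 CPM in WT NX and 283, 279, 229.8, 153 and 256 CPM in 5XFAD NX, with F 5XFAD NX 4 the lowest of all. Under CIH the WT libraries had 180.0, 176, 189, 194 and 204 CPM and the 5XFAD libraries 295, 249, 214, 236 and 266 CPM, without overlap. The genotype difference was 0.36 (FDR = 0.143) under NX, 0.48 (FDR = 0.00192) under NX without F 5XFAD NX 4, and 0.43 (FDR = 0.000610) under CIH. Male levels were 262, 264, 311, 311 and 322 CPM in WT NX and 434, 336, 412, 256 and 212 CPM in 5XFAD NX, which overlapped. In the CIH groups WT had 208, 218, 193, 165 and 205 CPM and 5XFAD 325, 314, 357, 434 and 498 CPM, with a wide gap between the groups. The male difference was 0.17 (FDR = 0.614) under NX and 0.97 (FDR = 2.95e-05) under CIH. The male NX value was 0.29 without M 5XFAD NX 5 and −0.057 with library size alone, and was not called in either.

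Slc25a4 is the ADP/ATP carrier best known from heart and muscle. It had 75.8, 65.8, 83.1 and 66.6 CPM in F WT NX, 101, 119, 89.5, 57.9 and 121 CPM in F 5XFAD NX, 65.6, 62.7, 60.8, 70.4 and 77.6 CPM in F WT CIH and 131, 103, 90.0, 119.6 and 122 CPM in F 5XFAD CIH. The groups overlapped under NX through F 5XFAD NX 4 alone and did not overlap under CIH. Log2FC was 0.42 (FDR = 0.147) under NX, 0.55 (FDR = 0.00364) under NX without that library, and 0.76 (FDR = 3.73e-05) under CIH. Males had 83.9, 95.7, 91.2, 88.5 and 102 CPM in WT NX, 150.0, 133, 169, 91.5 and 81.7 CPM in 5XFAD NX, 70.4, 62.0, 65.0, 66.7 and 64.5 CPM in WT CIH and 114, 114, 129, 157 and 209 CPM in 5XFAD CIH. All 5 M 5XFAD CIH libraries exceeded the M WT CIH libraries, while M 5XFAD NX 4 lay within and 5 just below the WT NX range. Log2FC was 0.44 (FDR = 0.126) under NX, 0.56 (FDR = 0.0238) under NX without M 5XFAD NX 5, and 1.14 (FDR = 2.10e-05) under CIH. The per-length ratio of Slc25a4 to Slc25a5 was 0.345 to 0.392 in F WT NX and 0.347 to 0.461 in F 5XFAD NX, which overlapped. It was 0.313 to 0.370 in F WT CIH and 0.403 to 0.494 in F 5XFAD CIH, without overlap. In males it was 0.199 to 0.254 in WT NX, 0.242 to 0.287 in 5XFAD NX, 0.198 to 0.282 in WT CIH and 0.246 to 0.294 in 5XFAD CIH. The male genotypes overlapped under both treatments. Slc25a5 thus exceeded Slc25a4 in every group, also where both were high.

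Among the calcium-regulated ATP-Mg/phosphate carriers, Slc25a23 also rose under CIH, by 0.26 (FDR = 0.00675) in females and 0.77 (FDR = 0.000249) in males. Slc25a24 was close to 1 CPM. It had 6.69, 0.811, 1.54 and 1.11 CPM in F WT NX, 1.51, 1.33, 1.93, 1.05 and 2.97 CPM in F 5XFAD NX, 1.14, 0.950, 0.900, 1.44 and 1.86 CPM in F WT CIH and 1.67, 2.33, 2.39, 3.30 and 3.29 CPM in F 5XFAD CIH. F WT NX 1 stood far above the other WT NX libraries, and the CIH groups overlapped. It rose in females under CIH (log2FC 1.05 ± 0.275, FDR = 0.00604), a call lost when all 4 groups shared one fit, and in males its CIH difference was −0.08 (FDR = 0.911).

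Ucp2 exports C4 dicarboxylates from the matrix and is linked to lower mitochondrial oxidant production in macrophages. It carried 21.6% of all member counts in females and 26.4% in males. Female levels were 507, 379, 346 and 359 CPM in WT NX and 1036, 770.2, 543, 297 and 729 CPM in 5XFAD NX, with F 5XFAD NX 4 the lowest of the 9. Under CIH they were 363, 375, 343, 406 and 387 CPM in WT and 674, 563, 607, 597 and 687 CPM in 5XFAD, without overlap. Ucp2 rose 1.69-fold under CIH (log2FC 0.76 ± 0.071, FDR = 1.56e-06). Under NX its log2FC was similar in size but not called (log2FC 0.76 ± 0.299, FDR = 0.106), and without F 5XFAD NX 4 it was 0.94 (FDR = 0.00299). Male levels were 481, 542, 682, 596 and 659.8 CPM in WT NX and 1203, 1167, 1141, 575 and 616 CPM in 5XFAD NX, where libraries 4 and 5 lay within the WT NX range and libraries 1 to 3 far above it. Under CIH they were 496, 404, 399.9, 382 and 371 CPM in WT and 1085, 1213, 976, 1064 and 1378 CPM in 5XFAD, with every 5XFAD CIH library well above every WT CIH library. Ucp2 rose 2.80-fold in males under CIH (log2FC 1.48 ± 0.116, FDR = 1.60e-07), the largest rise of any carrier there. The NX rise (log2FC 0.67 ± 0.216, FDR = 0.0493) was near the threshold and was lost with library size alone, with the replicate block and when any 1 of M WT NX 1 to 5 or M 5XFAD NX 1 to 3 was left out.

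Of the relatives grouped with Ucp2, the brain uncoupling proteins Slc25a27 (Ucp4) and Slc25a14 (Ucp5) and the kidney carrier Slc25a30, Slc25a27 fell in 5XFAD under CIH in both sexes, with a log2FC of −0.59 (FDR = 0.0132) in females and −0.98 (FDR = 0.0126) in males. Its mean was 7.24 ± 2.08 CPM (SD, n = 5) in M WT CIH and 3.67 ± 1.39 in M 5XFAD CIH, and the groups overlapped. Slc25a30 rose slightly in females under CIH (log2FC 0.24, FDR = 0.0442), and Slc25a14 was not called in any comparison.

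**Figure D3:**
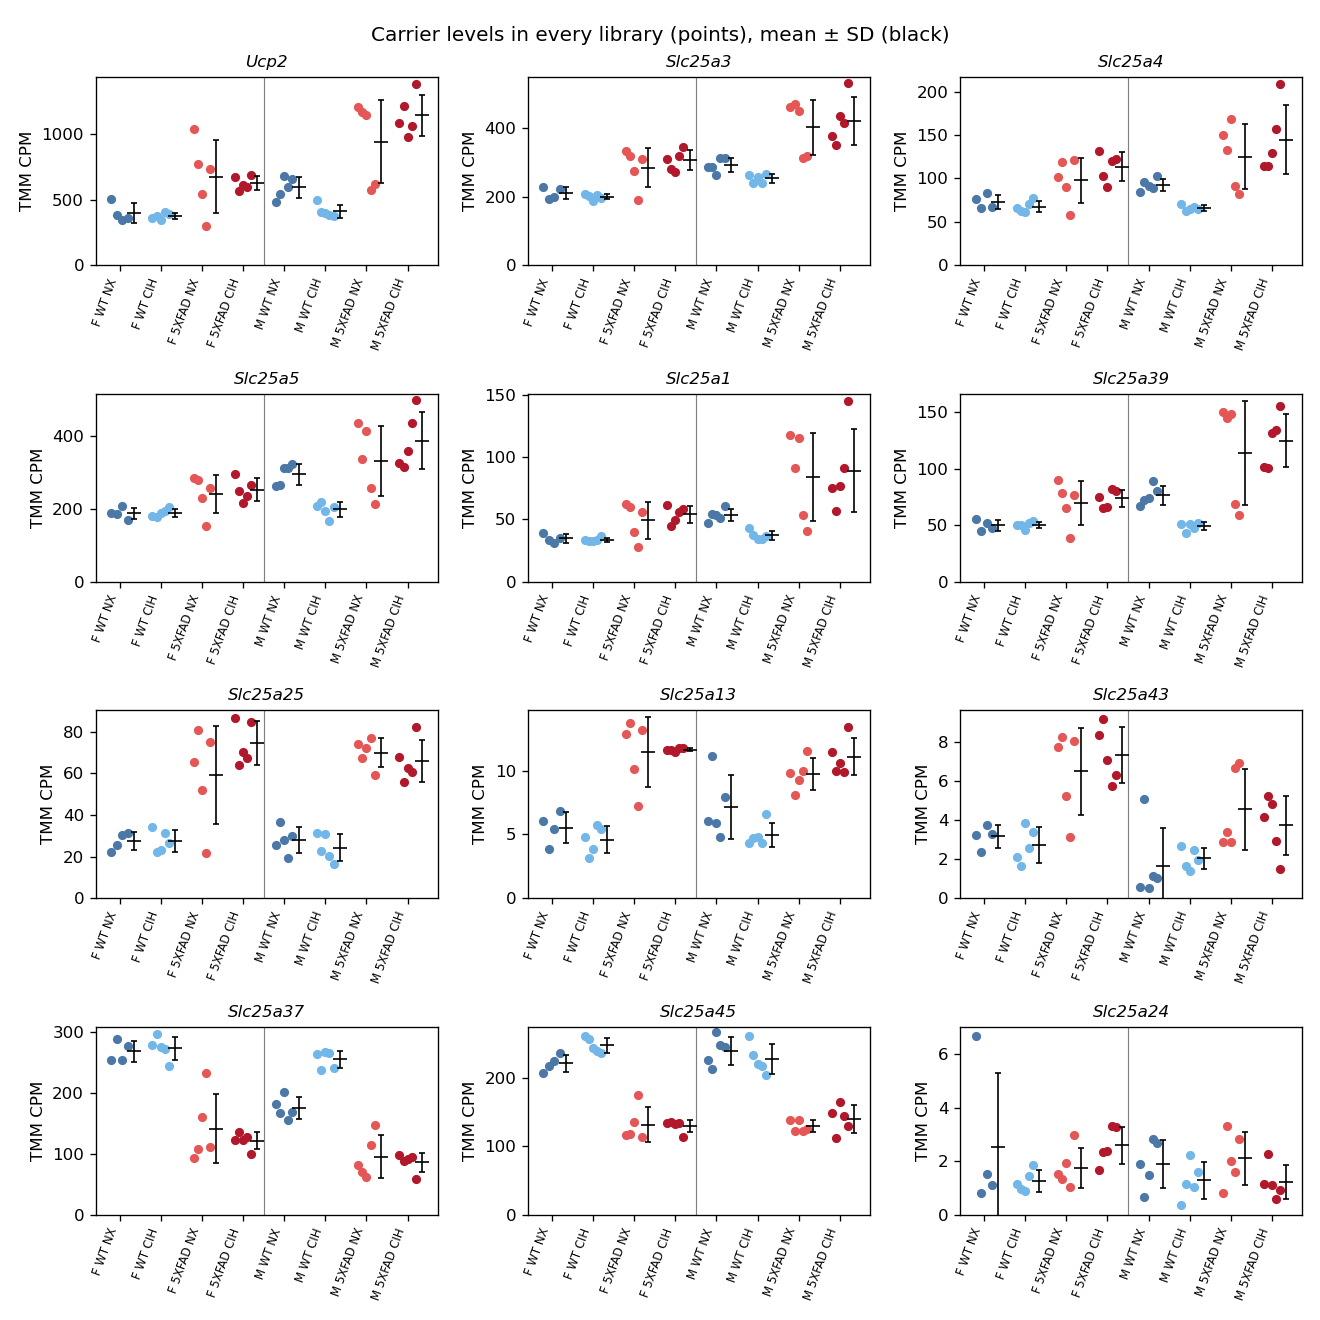
TMM-scaled CPM of 12 carriers in every library (points), with females left and males right of the grey line and, in each sex, WT before 5XFAD and NX before CIH, with the mean ± SD in black (n = 4 in F WT NX and 5 elsewhere) and axes that start at 0. Library 4 of F 5XFAD NX lies near the WT levels in most panels, as do libraries 4 and 5 of M 5XFAD NX for Ucp2, Slc25a3, Slc25a4, Slc25a5, Slc25a1 and Slc25a39 but not for Slc25a25 and Slc25a45.

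Of the 7 tested carriers of di- and tricarboxylates, aspartate and glutamate, 3 rose in F CIH (26.2% of all genes) and 4 in M CIH (25.3%), and 0 fell. Under NX 1 of 7 rose in females (7.26% of all genes), 3 of 7 without F 5XFAD NX 4 (21.8%), and 0 of 7 in males (10.4%). Slc25a1, the citrate carrier that supplies carbon for fatty acid synthesis, had 38.8, 33.6, 30.9 and 35.4 CPM in F WT NX and 62.5, 59.8, 40.0, 28.2 and 55.8 CPM in F 5XFAD NX, F 5XFAD NX 4 again lowest. Under CIH it had 33.4, 32.6, 32.4, 33.2 and 36.5 CPM in F WT and 61.4, 44.8, 49.7, 55.8 and 58.7 CPM in F 5XFAD, where the groups did not overlap. Its log2FC was 0.51 (FDR = 0.119) under NX, 0.64 (FDR = 0.00345) under NX without that library and 0.70 (FDR = 1.68e-05) under CIH. In males it had 47.4, 54.3, 53.5, 51.1 and 60.7 CPM in WT NX and 118, 90.9, 116, 53.3 and 40.8 CPM in 5XFAD NX, with library 4 within and library 5 below the WT NX range. Under CIH it had 43.3, 37.7, 34.3, 34.6 and 36.9 CPM in WT and 75.4, 56.8, 77.0, 91.0 and 145 CPM in 5XFAD, without overlap although the 5XFAD libraries spread widely. The male log2FC was 0.65 (FDR = 0.104) under NX and 1.26 (FDR = 9.95e-05) under CIH. The NX value passed without M 5XFAD NX 4, at 0.77 (FDR = 0.0421), and without M 5XFAD NX 5, at 0.82 (FDR = 0.0106). Slc25a10, the dicarboxylate carrier, moved the same way, with 24.2, 21.0, 16.0, 19.0 and 18.4 CPM in M WT CIH and 37.2, 31.1, 34.0, 44.7 and 60.9 CPM in M 5XFAD CIH, and rose by 1.08 (FDR = 0.000151) in males and 0.80 (FDR = 0.000108) in females under CIH.

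Slc25a13 (citrin) is one of the 2 aspartate/glutamate carriers of the malate-aspartate shuttle, and it is expressed at low levels in these cells. Female levels were 6.03, 3.88, 5.43 and 6.82 CPM in WT NX, 12.9, 13.8, 10.2, 7.22 and 13.2 CPM in 5XFAD NX, 4.84, 3.15, 3.84, 5.76 and 5.42 CPM in WT CIH and 11.6, 11.6, 11.4, 11.8 and 11.8 CPM in 5XFAD CIH. Here even F 5XFAD NX 4 was just above the WT NX range, and the genotypes were apart under both treatments. Slc25a13 rose 2.06-fold under NX (log2FC 1.05 ± 0.223, FDR = 0.0232) and 2.55-fold under CIH (log2FC 1.35 ± 0.147, FDR = 5.90e-06). The NX call was lost with the replicate block and without any 1 of F WT NX 2, 3 or 4 or F 5XFAD NX 1, 2 or 5, with an FDR of up to 0.119, and without F 5XFAD NX 4 the log2FC was 1.16 (FDR = 0.000710). Male levels were 6.04, 11.2, 5.87, 4.83 and 7.92 CPM in WT NX, 9.81, 8.10, 9.29, 9.98 and 11.5 CPM in 5XFAD NX, 4.32, 4.68, 4.81, 4.31 and 6.60 CPM in WT CIH and 11.5, 9.98, 10.6, 9.89 and 13.4 CPM in 5XFAD CIH. M WT NX 2 was as high as the 5XFAD libraries, so the groups overlapped under NX alone. The male rise was called under CIH (log2FC 1.17 ± 0.175, FDR = 7.91e-05), and the value under NX was 0.45 (FDR = 0.232). Its paralog Slc25a12 was called in no comparison, and the per-length ratio of Slc25a13 to Slc25a12 was 0.224 to 0.463 in F WT CIH and 0.692 to 0.823 in F 5XFAD CIH, and 0.302 to 0.427 and 0.654 to 0.917 in the male groups. Slc25a11, the 2-oxoglutarate/malate carrier of the same shuttle, rose in males under CIH by 0.30 (FDR = 0.0219), but with scaling by library size alone its log2FC had the opposite sign. The glutamate carriers Slc25a18 and Slc25a22 were not called, and Slc25a18, with at most 4.86 CPM in males, had the largest log2FC of any carrier in M NX (log2FC 1.71 ± 0.626, FDR = 0.0802).

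The iron importer Slc25a37, which brings iron to the matrix for heme and iron-sulfur clusters and is abundant in erythroid cells, fell in 5XFAD in all 4 genotype comparisons. Female levels were 255, 289.6, 254 and 277 CPM in WT NX and 93.7, 108, 161, 233 and 111 CPM in 5XFAD NX. Under CIH they were 279, 297, 276, 272 and 245 CPM in WT and 124, 135, 123, 128 and 99.2 CPM in 5XFAD. All 5XFAD libraries lay below all WT libraries of the same treatment, with F 5XFAD NX 4 nearest to them. Log2FC was −0.92 (FDR = 0.0429) under NX, −1.19 (FDR = 0.000203) without that library, and −1.15 (FDR = 1.10e-07) under CIH. The NX call was lost with library size alone, with the replicate block and when any library of the comparison other than F 5XFAD NX 4 was left out. Male levels were 182, 168, 202, 156 and 169 CPM in WT NX and 81.9, 69.7, 61.6, 115 and 147 CPM in 5XFAD NX. Under CIH they were 265, 238, 267, 266 and 241 CPM in WT and 97.5, 89.0, 91.0, 95.3 and 58.1 CPM in 5XFAD, the widest gap between genotypes. Log2FC was −0.88 (FDR = 0.0121) under NX and −1.56 (FDR = 3.08e-07) under CIH, a fall to a level 2.94-fold lower. Markers of erythroid cells summed to 48.2 to 121 CPM in M WT CIH and 24.5 to 108 CPM in M 5XFAD CIH, and to 2.76 to 106 and 7.63 to 34.1 CPM in the female groups. None of the 5 erythroid markers tested under CIH in either sex was called between genotypes (median log2FC −0.90 in females and −0.19 in males). Under NX the erythroid markers moved with Slc25a37. In males their sums were 63.6 to 235 CPM in WT NX and 15.1 to 91.1 CPM in 5XFAD NX, 2 of 5 were called lower and all 5 had an unadjusted p below 0.05 (median log2FC −1.48). In females their sums were 6.14 to 96.6 and 8.77 to 28.2 CPM, 0 of 4 were called and 3 had an unadjusted p below 0.05, all 4 with a negative log2FC (median −1.74), and without F 5XFAD NX 4, 3 of 4 were called lower. Their part in the fall of Slc25a37 was not tested.

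Slc25a28, the second mitoferrin, changed less. It fell in females under CIH (log2FC −0.35, FDR = 0.000133) and in males its log2FC was 0.20 (FDR = 0.190). The per-length ratio of Slc25a37 to Slc25a28 was 1.41 to 1.53 in F WT NX and 1.23 to 1.47 in F WT CIH, and 0.634 to 0.879 in F 5XFAD CIH. In males it was 0.539 to 0.945 in WT NX, 1.15 to 1.54 in WT CIH and 0.227 to 0.514 in 5XFAD CIH. In M 5XFAD NX libraries 1 to 3 had ratios of 0.319, 0.299 and 0.219, and libraries 4 and 5 had 0.859 and 1.01, the former above 4 of the 5 WT NX ratios and the latter above all 5. The paralogs that import glutathione moved in opposite directions. Slc25a39 had 51.1, 43.2, 50.7, 47.9 and 52.0 CPM in M WT CIH and 101, 101, 132, 134 and 156 CPM in M 5XFAD CIH and rose 2.56-fold (log2FC 1.35 ± 0.123, FDR = 7.36e-07). Its female rise under CIH was 0.56 (FDR = 4.75e-05). Slc25a40 fell under CIH, with a log2FC of −0.34 (FDR = 0.0234) in females and −0.50 (FDR = 0.00243) in males. The female call was lost without F WT CIH 1, F 5XFAD CIH 4 or F 5XFAD CIH 5.

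**Figure D4:**
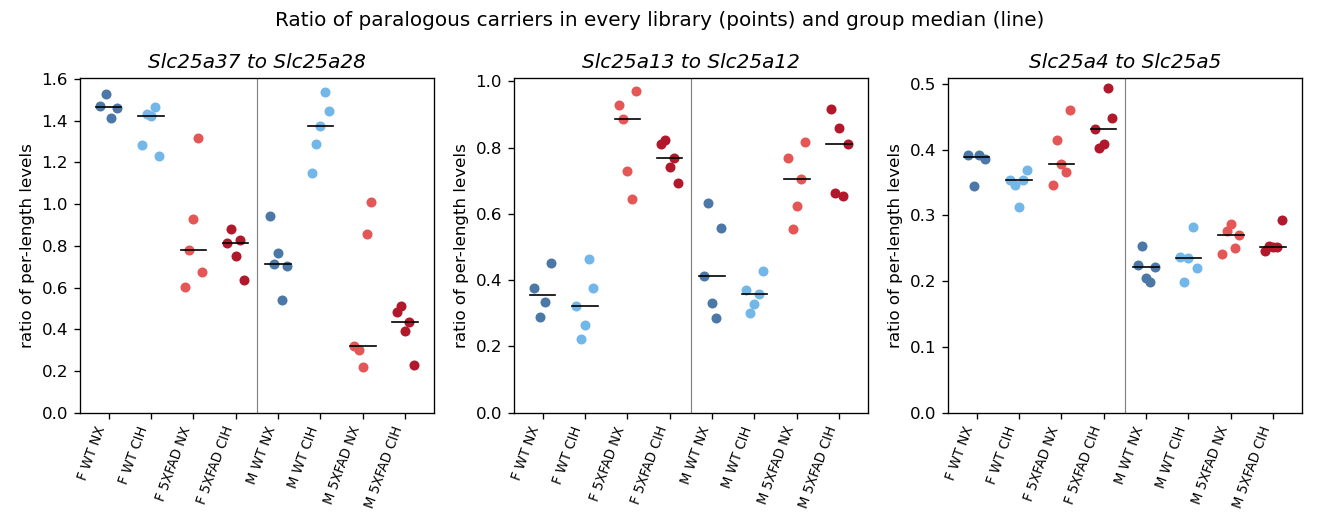
Ratio of the per-length levels of 3 pairs of related carriers in every library (points), with group medians as lines, females left and males right of the grey line. The Slc25a37 to Slc25a28 ratio is lower, and that of Slc25a13 to Slc25a12 higher, in every 5XFAD CIH library than in any WT CIH library of the same sex, whereas the Slc25a4 to Slc25a5 ratio stays below 0.5 in every library.

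Slc25a45, a carrier of methylated basic amino acids such as trimethyllysine, the precursor of carnitine, fell in all 4 genotype comparisons. Female levels were 207, 217, 224 and 236 CPM in WT NX and 117, 117, 135, 174 and 113 CPM in 5XFAD NX. The CIH levels were 261, 257, 243, 238 and 236 CPM in WT and 134, 135, 132, 133 and 113 CPM in 5XFAD. Male levels were 226, 213, 266, 247 and 245 CPM in WT NX and 138, 122, 138, 122 and 125 CPM in 5XFAD NX. The genotypes did not overlap in either sex under either treatment, also under CIH in males (261, 232, 220.0, 217 and 204 CPM in WT and 148, 111, 165, 144 and 129.6 CPM in 5XFAD). Log2FC was −0.75 (FDR = 0.0175) in F NX, −0.92 (FDR = 6.87e-08) in F CIH, −0.89 (FDR = 5.15e-05) in M NX and −0.69 (FDR = 0.000149) in M CIH. The female NX call was lost with the replicate block and without F WT NX 3, F WT NX 4 or F 5XFAD NX 5, and without F 5XFAD NX 4 the log2FC was −0.89 (FDR = 2.43e-05). No other tested amino acid or carnitine carrier was called in any comparison. These include the carnitine-acylcarnitine carrier Slc25a20, the ornithine carrier Slc25a15, the glycine carrier Slc25a38 and the branched-chain amino acid carrier Slc25a44.

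Of the 9 tested cofactor and nucleotide carriers, 0 rose and 2 fell in F CIH (26.2% and 25.7% of all genes), and 1 rose and 2 fell in M CIH (25.3% and 23.7%). Under NX 0 of 9 were called in females (13.9% of all genes) or males (17.8%), and 1 fell in females without F 5XFAD NX 4 (22.2%). Under CIH the coenzyme A carrier Slc25a42 fell in females (log2FC −0.74, FDR = 0.00510), as did the peroxisomal cofactor carrier Slc25a17 (log2FC −0.15, FDR = 0.0279), a call lost in 8 of 18 alternatives with an FDR of up to 0.245. In males under CIH, the pyrimidine nucleotide carrier Slc25a36 fell (log2FC −0.56, FDR = 0.000317), as did Slc25a16, which is linked to coenzyme A (log2FC −0.33, FDR = 0.0351), a call lost in 9 of 18 alternatives with an FDR of up to 0.166. The NAD carrier Slc25a51, the S-adenosylmethionine carrier Slc25a26 and the folate carrier Slc25a32 were not called for genotype. Of the members with no agreed substrate, Slc25a35 fell under CIH, with a log2FC of −0.73 (FDR = 0.000222) in females and −0.61 (FDR = 0.0184) in males, with the overlap with Rangrf noted above. Slc25a43 was low in level but rose in females. It had 3.23, 2.38, 3.74 and 3.27 CPM in F WT NX and 7.73, 8.26, 5.25, 3.14 and 8.04 CPM in F 5XFAD NX, and 2.11, 1.66, 3.84, 2.57 and 3.40 CPM in F WT CIH and 8.35, 9.15, 7.10, 5.72 and 6.31 CPM in F 5XFAD CIH. The CIH groups did not overlap, and under NX library 4 of 5XFAD lay among the WT values. Log2FC was 1.03 (FDR = 0.0451) under NX and 1.44 (FDR = 0.000130) under CIH in females, and 1.46 (FDR = 0.130) and 0.88 (FDR = 0.0520) in males. The female NX call was lost with library size alone, with the replicate block and without any library other than F 5XFAD NX 4, and without that library it was 1.20 (FDR = 0.00128).

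Over the 4 genotype comparisons, 15 carriers rose and 10 fell in at least 1, with 1 rise (Slc25a25) and 2 falls (Slc25a37 and Slc25a45) in all 4. Of all genes tested in at least 1 of these, 30.1% rose and 31.5% fell in at least 1, and of those tested in all 4, 4.89% rose and 2.78% fell in each. Under CIH 10 carriers rose in both sexes (Slc25a1, Slc25a3, Slc25a4, Slc25a5, Slc25a10, Slc25a13, Slc25a23, Slc25a25, Slc25a39 and Ucp2) and 5 fell in both (Slc25a27, Slc25a35, Slc25a37, Slc25a40 and Slc25a45), with no opposite calls. Of 12894 gene symbols tested under CIH in both sexes, 19.6% rose and 16.1% fell in both and 0.605% had opposite calls. Markers of other cells also differed between genotypes, with calls in both directions. Of 7 astrocyte markers 4 rose and 1 fell in F CIH, and they summed to 160.1 to 199.7 CPM in WT and 227 to 643 CPM in 5XFAD. In M CIH 1 rose (Gfap, with a log2FC of 8.58) and 2 fell, with sums of 156 to 225 and 221 to 607 CPM, against microglial sums of 28047 to 32756 and 24286 to 25958 CPM. Microglial sums were also lower in 5XFAD in F CIH, at 29113 to 33277 CPM in WT and 23935 to 25475 CPM in 5XFAD. Under NX they were 29117 to 32612 and 25075 to 26684 CPM in females, and 31911 to 35778 and 23218 to 27697 CPM in males. Endothelial markers summed to 57.9 to 139 CPM in F WT CIH and 169 to 247 CPM in F 5XFAD CIH, but 5 of 7 had a negative log2FC (median −0.51), 2 rose, with Flt1 at 3.23, and 1 fell. In M CIH 1 of 7 rose and 1 fell. Border macrophage markers fell in 6 of 7 tested genes in F CIH, 3 of 7 in M CIH, 6 of 7 in F NX and 5 of 7 in M NX. Neutrophil markers fell in 4 of 8 in F CIH and 3 of 9 in M CIH. Lymphocyte markers fell in 1 of 3 in F CIH and rose in 2 of 4 in M CIH. Of the oligodendrocyte markers 1 of 6 rose and 1 fell in F CIH and 2 of 7 rose in M CIH, and of the neuron markers 1 of 6 fell in F CIH and 0 of 7 were called in M CIH. Genes of the dissociation response rose in 1 of 10 in F CIH, 3 of 10 in M CIH and 2 of 10 in F NX, and 1 rose and 4 fell in M NX. Under NX the remaining lists also had calls, with 1 astrocyte marker up and 1 down in F NX and 3 up and 1 down in M NX, 1 endothelial marker up and 1 down in each sex, 1 oligodendrocyte marker down in F NX and 3 up in M NX, and 1 lymphocyte and 1 neuron marker down in M NX. Their part in the carrier differences was not tested. Under CIH the TMM factors of the 5XFAD libraries were all below those of the WT libraries of the same sex. With library size alone the median log2FC of all genes shifted by −0.19 in F CIH and −0.37 in M CIH. With that scaling 11 carriers rose and 13 fell in F CIH (17.5% and 42.2% of all genes), and 10 rose and 18 fell in M CIH (14.9% and 46.0%).

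CIH was then compared with NX within each genotype. In WT males 15 of 41 tested carriers were called, against 28.6% of all 14983 genes, 5 of them higher in CIH (13.6% of all genes) and 10 lower (15.0%). By the added fold criterion 0 carriers passed the DEG threshold (2.51% of all genes did). The median log2FC was −0.10 for the carriers and −0.01 for all genes. The strongest falls were in the glutathione carrier Slc25a39, with a log2FC of −0.64 (FDR = 0.000343), Slc25a10, with −0.63 (FDR = 0.00136), and Slc25a5, with −0.57 (FDR = 0.000622). Ucp2 fell with −0.53 (FDR = 0.00210), Slc25a1 with −0.52 (FDR = 0.00120) and Slc25a4 with −0.49 (FDR = 0.000590). With library size alone 7 carriers were higher (18.8% of all genes) and 6 lower (10.4%). For Slc25a4, Slc25a5, Slc25a1, Slc25a10 and Slc25a39 every M WT CIH library lay below every M WT NX library, and for Ucp2 M WT CIH 1 overlapped with WT NX. Slc25a3 did not pass (log2FC −0.20 ± 0.076, FDR = 0.0581). Smaller falls were called for Slc25a33, a pyrimidine nucleotide carrier (log2FC −0.43, FDR = 0.0385), Slc25a23 (log2FC −0.41, FDR = 0.0469), Slc25a28 (log2FC −0.37, FDR = 0.0272) and Slc25a11 (log2FC −0.34, FDR = 0.0136). The calls of Slc25a23 and Slc25a33 were lost in 11 and 12 of 18 alternatives.

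The rises in WT males were led by Slc25a27 (log2FC 0.94 ± 0.231, FDR = 0.00688), at 3.76 ± 0.507 CPM in NX and 7.24 ± 2.08 CPM in CIH (SD, n = 5). Slc25a37 rose by 0.54 (FDR = 0.000492), and its CIH libraries were all above its NX libraries. Erythroid marker sums were 63.6 to 235 CPM in M WT NX and 48.2 to 121 CPM in M WT CIH, with 1 of 5 tested erythroid markers called, and lower, in CIH. Slc25a42 rose by 0.53 (FDR = 0.0315), Slc25a36 by 0.29 (FDR = 0.0359) and Slc25a51 by 0.28 (FDR = 0.0487), calls lost in 9, 6 and 9 of 18 alternatives. Among the CACGTG-bearing promoters printed above, those of Slc25a1 and Slc25a33 thus belong to genes that fell and that of Slc25a36 to a gene that rose, and Slc25a13 was not called (log2FC −0.53, FDR = 0.109). Neutrophil markers were lower in WT CIH males, with 7 of 9 called lower and sums of 250.3 to 1263 CPM in NX and 116 to 337 CPM in CIH, and 7 of 12 markers of disease-associated microglia were also called lower (5173 to 7580.2 and 3947 to 4252 CPM). Border macrophage markers were called lower in 3 of 7, lymphocyte markers in 1 of 3 and microglial markers in 2 of 8, and 1 astrocyte, 1 oligodendrocyte and 1 dissociation response gene were called higher. Their part in the carrier differences was not tested. When all 4 male groups shared one fit, which estimates the spread over all of them, 0 carriers were called in this comparison (0.0% of all genes), and without M WT CIH 3 there were 9 (22.0%).

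In the other 3 comparisons of CIH with NX, no carrier was called and no gene was (0.0% of 14583 in F WT, of 14578 in F 5XFAD and of 14334 in M 5XFAD). The paper reports a small number of DEGs in these comparisons. Some alternatives also called genes: 22 in F WT without a filter, 1 in F WT with DESeq2, and 1 in M 5XFAD with DESeq2 or the likelihood ratio test. At an unadjusted p below 0.05 there were 2 of 40 carriers in F WT (3.87% of all genes), 1 of 40 in F 5XFAD (3.22%) and 0 of 41 in M 5XFAD (3.3%), and DESeq2 and the likelihood ratio test also called 0 carriers in each. In F WT, log2FC was −0.09 ± 0.105 for Ucp2, −0.11 ± 0.091 for Slc25a4, 0.01 ± 0.071 for Slc25a5 and 0.03 ± 0.067 for Slc25a37. In M 5XFAD it was 0.28 ± 0.216 for Ucp2, 0.23 ± 0.200 for Slc25a5 and −0.14 ± 0.240 for Slc25a37. In the latter comparison M 5XFAD NX 4 and 5 sat at WT level for several carriers while the other 3 libraries did not. Leaving out F 5XFAD NX 4 left the F 5XFAD count at 0.

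Whether CIH acted differently in the genotypes was tested as the genotype by CIH interaction. At FDR below 0.05, 0 of 41 carriers were called in females (0.0% of 15582 genes) and 0 of 42 in males (0.0% of 15813 genes). At an unadjusted p below 0.05 there were 2 carriers in females (3.78% of all genes) and 12 of 42 in males (24.4% of all genes). The male carriers with the lowest p were Slc25a5 (log2FC 0.79 ± 0.235, FDR = 0.117), Ucp2 (log2FC 0.81 ± 0.254, FDR = 0.118) and Slc25a27 (log2FC −1.31 ± 0.454, FDR = 0.124), and Slc25a4 had 0.70 (FDR = 0.125) and Slc25a37 −0.69 (FDR = 0.133). DESeq2 called 3 in males (Slc25a4, Slc25a5 and Ucp2), where 6.43% of all genes were called. The fit without the expression filter called 5 (these 3 with Slc25a39 and Slc25a37), against 4.57% of all genes. Leaving out M 5XFAD NX 1 gave 3 calls (Slc25a5, Ucp2 and Slc25a36), against 6.05%. The comparison of genotypes under CIH and that of treatments in WT share the M WT CIH libraries, so their values are set side by side only: for Ucp2, 1.48 and −0.53, for Slc25a39 1.35 and −0.64, and for Slc25a37 −1.56 and 0.54.

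Other genes of the same membrane system were counted from lists of their roles. Carrier precursors reach the inner membrane through the TOM complex, the small TIM chaperones and the TIM22 complex. Of this import machinery, 8 of 16 tested genes rose and 0 fell in 5XFAD under CIH in females (median log2FC 0.31), where 26.2% of all genes rose and 25.7% fell. In males 9 of 15 rose and 0 fell (median 0.79), where 25.3% of all genes rose and 23.7% fell. The largest male changes were in Tomm7 (log2FC 1.97, FDR = 6.40e-06), Timm13 (log2FC 1.54, FDR = 0.000128), Timm8b (log2FC 1.29, FDR = 2.94e-05) and Timm10 (log2FC 1.19, FDR = 9.81e-05). In WT males under CIH 0 rose and 5 of 15 fell (13.6% and 15.0% of all genes), among them Timm13 (log2FC −0.66, FDR = 0.0469) and Tomm40, the channel itself (log2FC −0.46, FDR = 0.00261). Of 19 other inner membrane transporters, 11 rose and 4 fell in F CIH and 9 rose and 5 fell in M CIH, with Smdt1, a subunit of the calcium uniporter, at 1.30 (FDR = 9.33e-05) and the sideroflexin Sfxn4 at −0.55 (FDR = 0.00755) in males. Under NX, 0 of 16 import genes were called in females (13.9% of all genes), and 2 rose and 1 fell of 15 in males (10.4% and 7.37% of all genes). In F NX without F 5XFAD NX 4, 6 of 16 import genes rose and 0 fell (21.8% and 22.2% of all genes). In that fit 6 of the 19 other inner membrane transporters rose and 2 fell. Of the outer membrane channels and carrier relatives, 2 of 5 rose in F NX without F 5XFAD NX 4. Under CIH 2 of 5 rose in females and 3 of 5 in males, including the voltage-dependent anion channels. Log2FC of Vdac1 was 0.37 (FDR = 0.00136) in females and 0.51 (FDR = 0.000487) in males, and that of Vdac2 0.40 (FDR = 0.00254) and 0.65 (FDR = 0.000207).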

How the data were processed

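Gene expression was measured in 39 libraries of CD11b+ microglia by paired-end mRNA sequencing. The authors aligned the reads to GRCm38 (mm10), with HISAT2 named in the submitters' processing notes, and deposited raw read counts per gene in 1 table for each sex. The counting tool, its strand setting and the annotation release are not given in the sources used here. The authors also deposited FPKM values, which in females equal the count per gene length and library total, and in males differ from this by a factor of 0.831 to 1.26 per library; they served only to derive female gene lengths. Male gene lengths, another deposited column, came with the count table. No per-sample column was left unused for want of a sample.

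Counts were scaled by TMM and tested in edgeR 4.0.16 (quasi-likelihood F test, R 4.3.3, limma 3.58.1) for each pair of groups within a sex, keeping genes that reached a CPM over 1 in 3 or more of the compared libraries, with Benjamini-Hochberg FDR over all genes tested. DEGs had FDR below 0.05 and absolute log2FC above 1. The interaction was fitted over the 4 groups of a sex. SEs were derived from the log2FC and its F statistic. CPM levels were scaled by TMM over all libraries of a sex. The study's methods call the samples independent, and neither they nor the labels say that each library is a separate mouse. The p-values measure the spread between these libraries. On simulated counts the female and male WT comparisons were checked for recovery of set changes before use. Of 76 pairs of libraries within groups none agreed within sampling noise (lowest chi-square per degree of freedom 4.86).

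Replicate numbers are shared between groups, but no source ties them to litters or days and same-numbered libraries did not deviate together in every pair of any comparison, so the fits carry no block. Alternatives were the likelihood ratio test, DESeq2 1.42.0, library size alone, median-of-ratios size factors, no filter, at least 10 counts in every sample, all 4 groups in 1 fit, a replicate block, and leaving out each library. Sequences were taken from GENCODE M21 transcripts and RefSeq promoters with biopython 1.88.

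The carriers, role lists and markers were chosen with earlier results of these data known. Named were, in each comparison, carriers at FDR below 0.05, up to the 8 largest rises and 8 largest falls, DEGs, and always Ucp2, Slc25a1, Slc25a3, Slc25a4, Slc25a5 and Slc25a37; values in every library were given for up to 6 of these per sex and for the carriers always described. Slc25a12, Slc25a14, Slc25a18, Slc25a22, the uncalled amino acid and cofactor carriers, the markers Gfap and Flt1, and the named import and channel genes were chosen after their values were seen. Of the members, 1 is counted but not reported here by name.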

Additional observations from a re-analysis of the deposited data

Results flagged for a closer look

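In 7 of 88 groups of 4 or 5 libraries examined, the library at one end stood apart from the rest by more than the 95% critical value of Dixon's test, where chance alone gives about 5%. The gap to the nearest library, as a share of the group's range, is given for each.

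Slc25a24 in F WT NX had a gap of 0.877, with replicate 1 at 6.69 CPM and the others at 0.811 to 1.54 CPM. Slc25a45 in F 5XFAD CIH had a gap of 0.847, with replicate 5 at 113 CPM and the others at 132 to 135 CPM. Slc25a1 in F WT CIH had a gap of 0.752, with replicate 5 at 36.5 CPM and the others at 32.4 to 33.4 CPM. Slc25a37 in M 5XFAD CIH had a gap of 0.783, with replicate 5 at 58.1 CPM and the others at 89.0 to 97.5 CPM. The same library had the highest summed level of all 48 carriers in its group, 4058.5 CPM against 3143 to 3407 CPM, a gap of 0.712. Ucp2 in M WT CIH had a gap of 0.737, with replicate 1 at 496 CPM and the others at 371 to 404 CPM. Slc25a13 in M WT CIH had a gap of 0.782, with replicate 5 at 6.60 CPM and the others at 4.31 to 4.81 CPM.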

How the results depend on the processing

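Counts of carriers called under CIH between genotypes were 21 in females, with 19 to 24 over the alternatives, and 19 in males, with 16 to 28. Over the same fits 17.6% to 59.7% of all genes were called in females and 19.7% to 60.9% in males. Both shares were lowest without a filter and highest with library size alone. The cause of the following changes was not tested. With library size alone, carriers at FDR below 0.05 in F WT NX against 5XFAD NX went from 5 to 2 (9.03% of all genes) and DEGs from 3 to 0 (869 to 622 over all genes). DEGs in M WT NX against 5XFAD NX went from 1 to 4 (1224 to 1223 over all genes). They went from 8 to 5 in M WT CIH against 5XFAD CIH (2764 to 3674) and from 0 to 1 in M WT NX against WT CIH (376 to 423). With that scaling the carriers at FDR below 0.05 in M WT NX against 5XFAD NX split into 1 higher and 5 lower, and all genes into 1076 higher and 2179 lower of 14834. DESeq2 called 9 in F NX (24.2% of all genes), 8 in M NX (3 DEGs, 23.0%) and 3 in the male interaction (6.43%). With all 4 groups in 1 fit there were 15 in F NX (29.7%), 10 in M NX (4 DEGs, 22.8%) and 0 in M WT NX against WT CIH (0.0%). The likelihood ratio test gave 3 DEGs in M NX. Over all genes M NX had 1452 DEGs with DESeq2, 1461 with all 4 groups in 1 fit and 1442 with the likelihood ratio test. Without a filter there was 1 DEG in M WT NX against WT CIH (639 over all 37231 genes) and 5 carriers in the male interaction (4.57% of all genes).

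Replicate numbers did not pair the libraries (correlations of deviations from −0.49 to 0.35), and with the replicate block F NX went from 5 to 0 carriers (3 to 0 DEGs, 0.0482% of all genes at FDR below 0.05), M NX from 5 to 3 (8.83%) and M WT NX against WT CIH from 15 to 11 (25.7%). In these comparisons 2 of 8, 0 of 10 and 3 of 10 libraries correlated best with their own number.

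Leaving out each library gave 0 to 19 carriers and 0 to 4 DEGs in F NX, 3 to 9 and 1 to 2 in M NX, 9 to 14 and 0 to 1 in M WT NX against WT CIH, and 0 to 3 carriers in the male interaction. The same fits called 0.301% to 44.0% of all genes in F NX, 14.1% to 19.0% in M NX, 21.9% to 31.9% in M WT and 0.0% to 6.05% in the male interaction. DEGs over all genes were 27 to 1880 in F NX, 1040 to 1283 in M NX and 267 to 621 in M WT. The range of carriers was 19 to 21 in F CIH (47.0% to 51.7% of all genes) and 17 to 20 in M CIH (44.3% to 52.1%). It was 0 throughout in the other 3 CIH comparisons and the female interaction, as it was for all genes. Over the values of the carriers named by the rule, 1619 kept direction and side of the threshold, 138 lost and 25 gained it, and 32 changed sign, all with an FDR above 0.05 before and after. Leaving out each library gave, in F WT NX against WT CIH, −0.098 to 0.019 for Slc25a1, −0.0082 to 0.063 for Slc25a37, −0.045 to 0.062 for Slc25a5 and −0.15 to 0.055 for Ucp2. In F 5XFAD NX against 5XFAD CIH it gave −0.33 to 0.051 for Slc25a37, −0.043 to 0.14 for Slc25a5 and −0.28 to 0.11 for Ucp2, and in the female interaction −0.37 to 0.023, −0.059 to 0.12 and −0.20 to 0.18. In M 5XFAD NX against 5XFAD CIH it gave −0.13 to 0.25 for Slc25a1, −0.012 to 0.14 for Slc25a3 and −0.26 to 0.074 for Slc25a37. With the replicate block Slc25a5 was −0.017 in F WT, and Ucp2 0.0039 in F 5XFAD and 0.031 in the female interaction. Without a filter Slc25a5 was −0.010 in F WT, and with library size alone it was −0.057 in M NX and Slc25a3 −0.0020 in M 5XFAD. Slc25a11, outside that rule and called in M CIH, changed sign with library size alone, as given above. Depth limits carriers near 1 CPM, such as Slc25a24.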
